A study of Saccharomyces cerevisiae with 4 samples.

Results

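Total histone H3 was compared between hydroxyurea-treated and untreated budding yeast, with the 2 chromatin immunoprecipitation libraries made with a polyclonal antibody to the C-terminal part of H3. They were chosen by their labels, as the H3 members of a series of 4 libraries, and all of their windows on the 16 nuclear chromosomes were used. The other 2 libraries were made with an antibody against H3 phosphorylated at threonine 45 (H3T45p) and are used here only for comparison. All cells were of strain BY4741, an auxotrophic laboratory strain that descends from S288C, grown in rich YPD medium to mid-log phase without synchronisation being named in the labels. The cells of 1 library of each antibody received 200 mM hydroxyurea for 2 h and those of the other received none. Each side of the comparison held 1 library, so no difference has a replicate check and everything here is a description of these libraries. Titles carry the number 1 for hydroxyurea and 2 for untreated cells, so a batch that those numbers may mark and the treatment cannot be told apart.

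Histone H3 forms the core of each nucleosome together with H2A, H2B and H4, and an antibody that ignores its modifications reports how much nucleosomal DNA is recovered at a position. Hydroxyurea inhibits ribonucleotide reductase, the enzyme that makes deoxynucleotides, so that replication forks slow or stall soon after they leave the origins. In budding yeast origins fire in a reproducible order, and the checkpoint kinases Mec1 and Rad53 hold back late origins when deoxynucleotides are short. The DNA around an early origin is then present in more copies than DNA still to be replicated, and new copies are packed into nucleosomes behind the fork. Separately, single nucleosomes are lost or gained where transcription or DNA-bound factors change. No library of input DNA is among those analysed, so more DNA copies and more H3 per copy cannot be told apart in any value below.

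The authors' signal is a read count per window of 150 bp divided by 1 factor per library. The H3 libraries held 28688895 nuclear reads in hydroxyurea and 27318717 in untreated cells, with a median of 306 and 284 reads per window. The change of a window is the log2 of the hydroxyurea over the untreated signal after 28.1, which is 10% of the genome median, was added to both. Of 80474 nuclear windows, 71817 had a mean H3 signal of 25% of the genome median or more and enough kept neighbours for a running mean of 30 kb, and these are the windows described. That running mean is called the broad profile, and the change of a window minus the broad profile is called its local change. Positions are those of the deposited windows, counted from 1. Their genome build is not named, so no position was assigned to a gene or an origin.

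H3 changed over stretches of 30 kb and more and also over much shorter distances. The change of the middle window was -0.02, and the central 90% of windows ran from -0.57 to 0.48. Of the 71817 windows, 364 were lower by 1 or more on the log2 scale (0.507% of windows tested) and 9 were higher by as much (0.0125%). With the added constant at 50% of the genome median the counts were 72 and 0. The broad profile carried 29.3% of the variance of the window changes. The part between 30 kb and 1.65 kb carried 27.9% and the part finer than 1.65 kb carried 33.3%, and the remainder is shared between the parts. Counting of reads, which is contained in these parts, corresponds to 11.5% of the variance, with a median counting SD of 0.10 per window.

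The similarity of windows declined quickly over the first 1.5 kb and then slowly over longer distances. Changes of adjacent windows had a Pearson correlation of 0.775 and those 1.5 kb apart of 0.313, over 68591 and 66731 pairs that are not independent. Between 1.5 and 15 kb the correlation hardly moved, from 0.313 to 0.255. It was 0.203 at 30 kb, 0.102 at 60 kb and 0.0421 at 120 kb. Whether a fragment can count in adjacent windows was not tested. In the H3T45p libraries the correlation was 0.669 for adjacent windows, 0.413 at 1.5 kb and 0.273 at 30 kb.

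**Figure D1:**
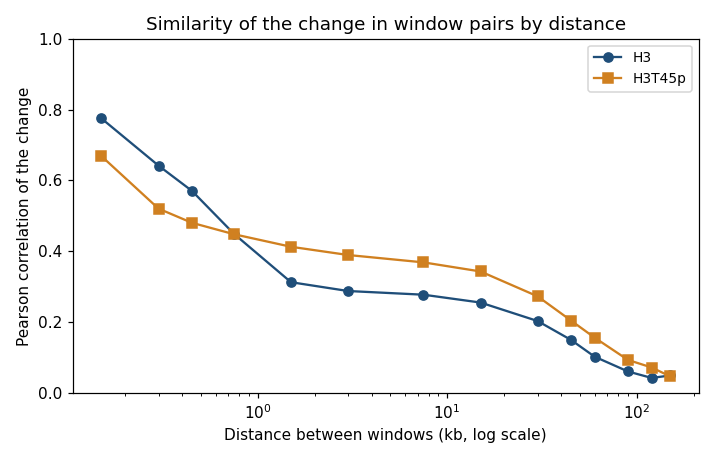
Pearson correlation of the log2 change, hydroxyurea over untreated, between kept windows a given distance apart (kb, log scale), for H3 and for H3T45p. The H3 curve drops from 0.775 to 0.313 within the first 1.5 kb, is nearly level to 15 kb and declines again to 0.102 at 60 kb.

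On every chromosome the broad profile had stretches above and below 0. It reached 0.2 or more on 16 chromosomes and -0.2 or less on 15, with chromosome 3 the exception at a lowest value of -0.17. Over the genome it ran from -0.51 to 0.41, a span of 1.90-fold, and its central 90% from -0.28 to 0.29. It lay above 0 for 37.1% of kept windows. By chromosome that share ran from 23.7% on chromosome 14 to 59.0% on chromosome 10, and the span from lowest to highest point ran from 0.53 on chromosome 3 to 0.90 on chromosome 12. Profiles computed from the odd and from the even windows had a Pearson correlation of 0.994 and differed with an SD of 0.02. The odd and even windows come from the same libraries, so this says nothing of the spread between cultures.

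**Figure D2:**
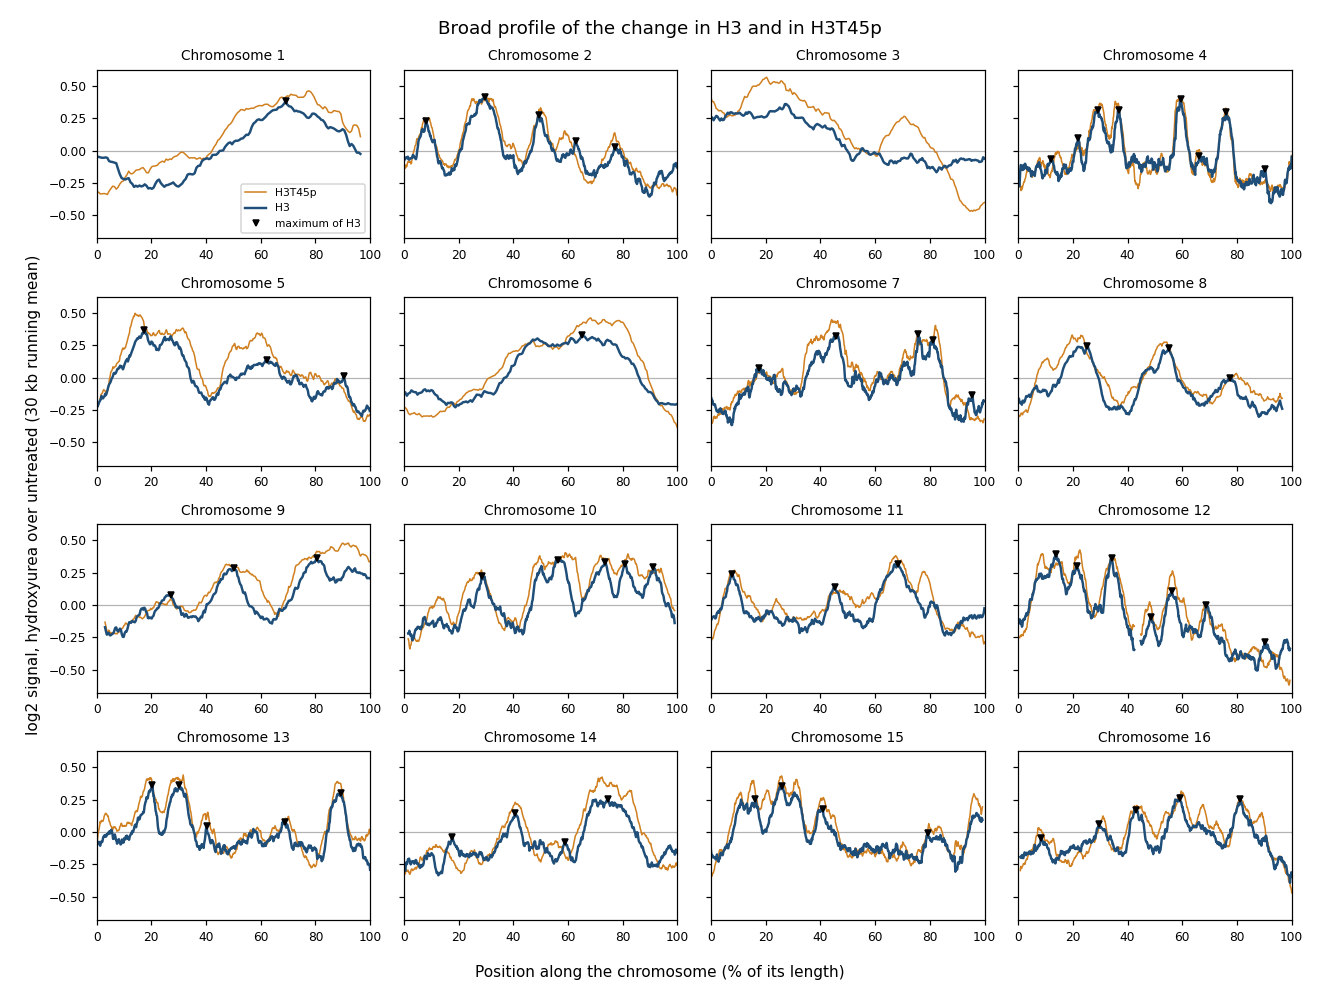
Broad profile of the log2 change, hydroxyurea over untreated, as a running mean of 30 kb along each of the 16 chromosomes, in percent of chromosome length, with H3 in blue, H3T45p in orange and the 62 maxima of H3 as triangles. The H3 profile moves between -0.51 and 0.41 in smooth hills, and the H3T45p profile follows most of them. The gap on chromosome 12 has too few kept windows.

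The profile had 62 maxima that stood 0.15 or more above the lowest points on both sides. The count depends on the smoothing, with 133 maxima at a running mean of 15 kb and 40 at 60 kb. The 62 heights had a median of 0.24, and 50 were above 0. The upper heights were crowded, with 20 maxima between 0.30 and the highest value of 0.41 and a further 15 between 0.20 and 0.30. The remaining 27 ranged down to -0.28, the height of a small hill inside a lowered stretch of chromosome 12.

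The highest maximum was on chromosome 2 at 242775. Within 15 kb on either side H3 averaged 424 in hydroxyurea and 318 without it, a height of 0.41. The next was on chromosome 4 at 909825, with a signal of 368 against 277 and a height of 0.40. Both were flanked on each side by points between -0.21 and -0.17, so they stood out as single hills. On chromosome 12 the maximum at 148725 had signals of 394 and 306 and a height of 0.39. The maximum of chromosome 1 at 159525 had signals of 459 and 351 and a height of 0.38. Chromosome 5 had its highest point at 100275, where the signal was 521 against 411, a height of 0.37. The untreated level of these hills ran from 277 to 411. Their heights were close, at 0.37 to 0.41, which choosing the highest maxima favours.

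The other 5 of the 10 highest maxima had heights of 0.36 each. They lay on chromosome 13 at 188625 and 279375, on chromosome 9 at 353925, on chromosome 12 at 368025 and on chromosome 15 at 284475. The pair on chromosome 13 was separated by a point at 222375 with a value of -0.02. Among the chromosomes without a maximum in the 10 highest, the highest points were 0.36 on chromosome 3 at 85875, 0.35 on chromosome 10 at 420075, 0.34 on chromosome 7 at 826875, 0.33 on chromosome 6 at 176175 and 0.32 on chromosome 11 at 455925. They were lower on chromosome 16 at 560175 (0.26), chromosome 14 at 585525 (0.25) and chromosome 8 at 142575 (0.25). On chromosome 3 the profile was already high at the left end, so its highest point did not count as a maximum. The longest unbroken stretch at 0.2 or more was this one, from 1 to 112500 of chromosome 3, where H3 averaged 581 in hydroxyurea and 488 without it.

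The lowest points lay in the right part of chromosome 12. On chromosome 12 the profile was -0.51 at 939825, with a mean signal of 246 in hydroxyurea and 367 in untreated cells. It was -0.50 at 1016325, with 257 against 391. Both lay in one stretch from 769651 to 1071750 in which the profile stayed at -0.2 or less for 302 kb. The next longest lowered stretch, on chromosome 4 from 1388101 to 1506900, was 119 kb long and held the minimum of -0.41 at 1416225, where the signals were 316 and 452. The other 2 of the 5 lowest minima were -0.40 on chromosome 16 at 942675, 5.4 kb from the end, and -0.37 on chromosome 7 at 82275. The chromosome 12 stretch thus held the 2 lowest minima and was the longest of the lowered stretches.

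The flanks of the hills were long. From a maximum to the lowest point beside it the profile declined by a median of 0.0514 per 10 kb over 124 flanks, with quartiles of 0.0373 and 0.0703. The profile was midway between maximum and lowest point at a median distance of 26.9 kb, with quartiles of 18.8 and 42.0 kb. Left and right flanks had medians of 27.2 and 26.6 kb. Single hills were often lopsided, since in 26 of 62 one of these distances was more than 2 times the other. The 35 maxima of 0.2 or more were broader, at 34.1 kb, than the 27 lower ones, at 22.2 kb. The smoothing sets part of the slope, which was 0.0984 per 10 kb with a running mean of 15 kb and 0.0338 with 60 kb.

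Neighbouring maxima on a chromosome were a median of 152 kb apart over 47 spacings. The closest pair was 53.4 kb apart, on chromosome 10 at 549075 and 602475. The widest spacing was 420 kb, on chromosome 15 from 445575 to 865725, where the profile went down to -0.24. Chromosome 4 had a spacing of 346 kb from 563925 to 909825, and chromosome 7 had spacings of 327 and 309 kb. Hills were thus spread unevenly, with crowded stretches such as the right part of chromosome 10 and long stretches that held none under the rule.

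Broad levels varied more in hydroxyurea than in untreated cells. The broad level of H3 had an SD of 0.25 in hydroxyurea and 0.17 in untreated cells. When kept windows were put in 10 classes by the broad profile, the median H3 signal in hydroxyurea went from 255 in the lowest class to 413 in the highest. In untreated cells the medians of the same classes stayed between 297 and 324. The broad level of untreated H3 alone had a Pearson correlation of 0.0579 with the broad change, and that of H3 in hydroxyurea had 0.729, where both levels enter the change itself. The classes are cut on the ratio of these 2 signals, so their H3 medians are a description and do not show which library carries the pattern.

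The H3T45p libraries, which played no part in defining the profile, had nearly the same broad change. Over kept windows the broad changes of H3 and H3T45p had a Pearson correlation of 0.909, and by chromosome it ran from 0.783 on chromosome 3 to 0.938 on chromosome 12. Both antibodies were used on cells of the same treatment, the labels do not say whether they shared chromatin, and the windows are not independent. In the 10 classes of the broad H3 profile the median H3T45p signal went from 258 to 427 in hydroxyurea and stayed between 304 and 324 in untreated cells. At 51 of the 62 H3 maxima the broad H3T45p change lay above its value at both neighbouring H3 minima. It had a median of 0.25 at the maxima and of -0.11 at the minima. At the maxima of 0.2 or more in H3 it was 0.34, and at the lower ones 0.02. The span of the central 90% was 0.66 for H3T45p and 0.56 for H3.

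**Figure D3:**
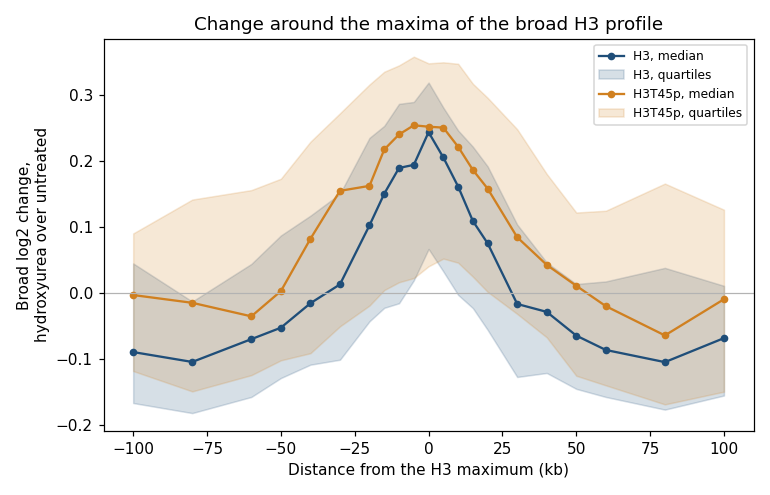
Broad log2 change, hydroxyurea over untreated, at distances up to 100 kb from the 62 maxima of the broad H3 profile, as medians with quartile bands, for H3 and for H3T45p. The H3 median goes from 0.24 at the maximum to -0.07 at 60 kb to the left and -0.09 at 60 kb to the right, and H3T45p goes from 0.25 to -0.04 and -0.02.

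Most chromosome ends were low in H3 in hydroxyurea. The mean change over kept windows in the last 20 kb was below 0 at 28 of the 32 ends, with a median of -0.15. As many, 28, lay below the genome median of the window change, which was -0.02. Values below 0 were common elsewhere too, since the broad profile was above 0 at only 37.1% of all kept windows. The ends held between 5 and 128 kept windows, since many windows there had too little signal in both libraries. The lowest value, -0.38 at the left end of chromosome 10, rests on 7 windows. The next was -0.37 at the right end of chromosome 16, from 91 windows with a mean signal of 234 in hydroxyurea and 316 in untreated cells. The 4 ends that were not below 0 were the left end of chromosome 3 at 0.25 (310 against 267), the right end of chromosome 9 at 0.21 (467 against 406), the right end of chromosome 15 at 0.03 and the right end of chromosome 1 at 0.00476.

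H3T45p was also highest at these 2 ends, with 0.34 at the left end of chromosome 3 and 0.37 at the right end of chromosome 9. It lay below the genome median of its change at 27 of 32 ends. The antibodies differed most at the right end of chromosome 3, with -0.09 for H3 and -0.43 for H3T45p. At the left end of chromosome 1 the values were -0.06 for H3 and -0.33 for H3T45p.

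**Figure D4:**
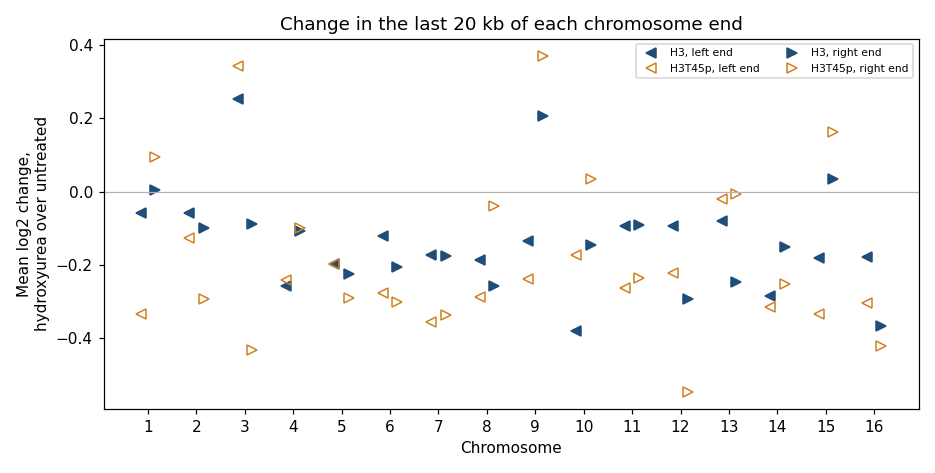
Mean log2 change, hydroxyurea over untreated, over kept windows in the last 20 kb of the left and right end of each chromosome, for H3 (filled) and H3T45p (open). For H3, 28 of 32 ends lie below 0, and the left end of chromosome 3 (0.25) and the right end of chromosome 9 (0.21) lie above the others.

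At a size of 1 on the log2 scale, the departures of windows from the broad profile were nearly all losses, and at smaller sizes gains took a larger share. The local change was -1 or less in 229 windows (0.319% of windows tested) and 1 or more in 1 window (0.00139%). At a size of 0.7 there were 882 windows of loss and 99 of gain, and at 0.5 there were 2788 and 1241. With the added constant at 50% of the genome median, 37 windows of loss and 0 of gain passed the size of 1. Of the 229 windows, 152 stood in 64 runs of 2 to 5 neighbouring windows, and 77 stood alone. Runs were found on 15 of 16 chromosomes, with 11 on chromosome 7, which held 6535 of the 71817 windows. Of the 64 runs, 3 lay within 20 kb of an end, and the share of all windows that lie there was not computed. No run of gain was found.

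Local loss occurred in raised and lowered stretches, with no steady trend over the broad profile. The broad profile was above 0 at 37.1% of the windows of loss and at 37.1% of all kept windows. In the 10 classes of the broad profile, between 0.139% and 0.529% of windows were lost, with 0.529% (38 windows) in the lowest class and 0.237% (17 windows) in the highest. At a size of 0.7 the shares of the lowest and highest class were 1.6% and 0.961%. Between them the shares at a size of 1 did not change steadily. Counted from the lowest, class 4 had 0.139% and classes 6 and 7 had 0.390%, against 0.319% of all windows tested.

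The windows of loss were mostly well occupied in untreated cells. In untreated cells the H3 signal of a run had a median of 415, and in 52 of 64 runs it was above the genome median of 281. In hydroxyurea it had a median of 146 and was below that median in 55 runs. Choosing windows by their loss favours a high untreated and a low hydroxyurea value, so these levels are a description. Around the runs the untreated signal formed a peak of 432 at the middle with dips to 244 at 300 bp on one side and 172 at 300 bp on the other, and the window at 150 bp to the right was at 370. Most runs are 2 windows wide, and the alignment on runs sets part of the width of this peak. In hydroxyurea the middle was 154 and the dips 137 and 90.6, so the peak was much lower and closer to the dips, most of all on the left. Beside the dips H3 was still lower in hydroxyurea. It was 222 against 325 at 600 bp to the left and 335 against 416 at 600 bp to the right. At 1500 bp to the left the signals were 375 in hydroxyurea and 358 in untreated cells, and to the right 340 and 372.

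**Figure D5:**
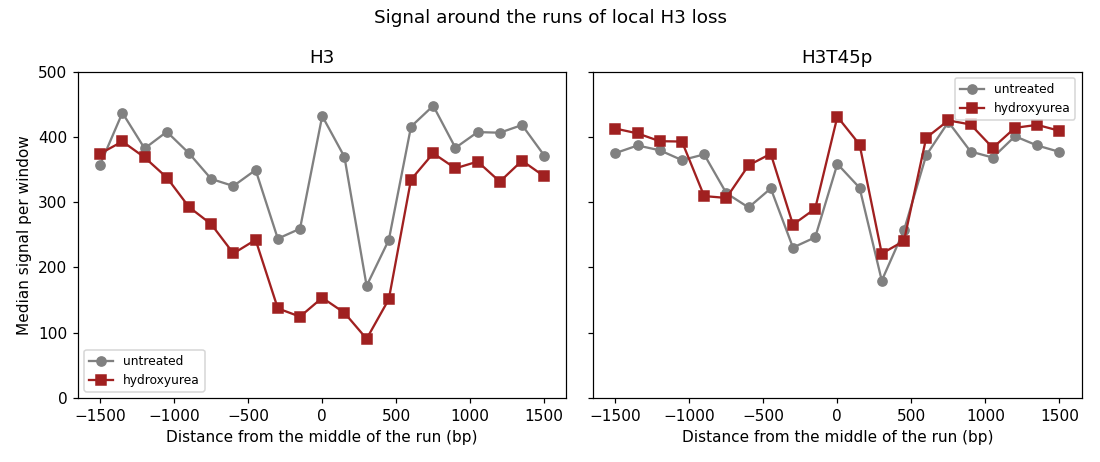
Median signal per window of 150 bp around the middle of the 64 runs of local H3 loss, for H3 (left) and H3T45p (right) in untreated and hydroxyurea-treated cells. H3 at the middle is 432 in untreated and 154 in treated cells, which the choice of runs favours, while H3T45p at the middle is 359 and 431.

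H3T45p was not locally lower in most of these windows. In the windows of loss its local change had a median of 0.17 and was above 0 in 66.4% of windows, against 51.1% of all kept windows. Across all kept windows the local changes of H3 and H3T45p had a Pearson correlation of -0.06, where the broad changes had 0.909. The H3T45p signal of a run had a median of 406 in hydroxyurea and 332 in untreated cells. Its local change was 0.5 or more in 13 of the 64 runs and -0.5 or less in 2. The shares of all kept windows past these sizes were not computed, so nothing is read from the 2 counts.

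The widest run was on chromosome 10 from 391201 to 391950. Its H3 signal was 113 against 309, from 621 and 1567 reads, a ratio of 0.365 (0.332 to 0.400, exact binomial interval at 95% for counting error only, as for all ratios). Its H3T45p signal was 665 and 304, so the antibodies went opposite ways there. The run of equal width on chromosome 13 from 773701 to 774450 had H3 signals of 181 and 531, a ratio of 0.340 (0.316 to 0.366), with H3T45p signals of 432 and 379. On chromosome 15 from 988201 to 988800 the H3 signals were 79.7 and 277, a ratio of 0.288 (0.254 to 0.325). There the 7 windows on each side were also lower, at 193 against 412, so that loss reached beyond the run. Runs that are counted separately lay within that distance. They were from 987301 to 987600 (307 against 782) and from 989101 to 989400 (134 against 379).

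Among runs of 3 windows, the lowest ratio was on chromosome 10 from 195301 to 195750. H3 was at 63.1 against 346, a ratio of 0.182 (0.156 to 0.212), while the 7 windows on either side were at 384 in hydroxyurea and 378 in untreated cells. It is one of the 2 runs in which the local change of H3T45p was -0.5 or less, with H3T45p signals of 267 in hydroxyurea and 350 in untreated cells. The other was on chromosome 5 from 298051 to 298500, with H3 signals of 51.6 and 193 (ratio 0.267, 0.224 to 0.317) and H3T45p signals of 157 and 206. Its windows on either side were at 395 and 353. In both runs the H3 of the windows alongside was not lower, so the loss covered about the width of the run.

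On chromosome 7 from 856951 to 857400 the signal of H3 was 144 against 607, a ratio of 0.238 (0.215 to 0.263), and its H3T45p signals were 517 and 461. On chromosome 16 from 502951 to 503400 it was 108 against 418, a ratio of 0.259 (0.229 to 0.291). These 2 runs were above the genome median in untreated cells and under it in hydroxyurea, with H3T45p at 393 against 337 in the chromosome 16 run. The local change of H3T45p was -0.24 in the chromosome 7 run and -0.04 in the chromosome 16 run, so it was not locally higher in either. The remaining 3 of the 10 widest runs, on chromosome 12 from 677551, chromosome 15 from 216451 and chromosome 5 from 241951, had ratios of 0.325, 0.366 and 0.330.

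The single windows with the lowest local change belonged to 3 of these runs. In the 5 lowest, the local change of H3T45p went both ways. It was -0.34, -0.37, 0.54, -0.80 and 0.27, in order from the lowest local change of H3 upward. At chromosome 10 from 195301 to 195450 H3 was at 43.5 in hydroxyurea and at 336 in untreated cells, from 48 and 341 reads, a local change of -2.38. At chromosome 7 from 857101 to 857250 it was 222 against 1020, a local change of -2.21, and its untreated signal was above the 95th percentile of nuclear windows, which is 825. The third, at chromosome 10 from 391501, had 67.1 against 341. The other two of the 5 lowest were next to the first and the second of these windows.

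The windows with the highest local change had little H3. The only one past the size of 1 was on chromosome 6 from 92551 to 92700, with a signal of 200 in hydroxyurea and 90.6 in untreated cells, from 221 and 92 reads, a ratio of 2.21 (1.73 to 2.85). The next 4 had local changes of 0.89 to 0.97, on chromosome 11 from 405901 and from 64051, chromosome 8 from 154951 and chromosome 15 from 858301. Their signals were 110 against 40.4, 111 against 39.4, 143 against 55.1 and 154 against 73.9. All 5 windows were well under the genome median in untreated cells and stayed under it in hydroxyurea, which choosing windows by their gain favours. Of the 5, 3 had untreated signals under the filter of 70.2 and passed it only through their hydroxyurea value. In all 5 the local change of H3T45p was below 0, from -0.68 to -0.16. It was above 0 in 51.1% of all kept windows. Over all kept windows the H3T45p change, with its broad part, differed by H3 level. Its median was -0.25 in the poorest of 10 classes of H3 signal and 0.38 in the densest. The local change of H3T45p was not computed by H3 level, so the part of H3 level in these windows was not tested.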

How the data were processed

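Chromatin immunoprecipitation was sequenced for 4 libraries, 1 per antibody and treatment. The authors deposited a signal per window of 150 bp, and dividing by the lowest nonzero value of a library gave whole reads to within 0.001 for 100% of values. The signal is therefore reads divided by 1 factor per library. The submitters' processing notes name, without a role, DESeq and BWA 0.5.9-r16. The sources used here do not name the genome build. With 1 library a side no count test could be fitted and no p-value is given. The change, the running mean of 201 windows (at least 50 kept), its maxima and the local change were computed with Python 3.11.15, numpy 2.4.6 and pandas 2.3.3, and tested on simulated data. Intervals are exact binomial (scipy 1.17.1). Reads are not independent molecules. Named are the 10 highest maxima, the 5 lowest minima, the highest point of each chromosome, the 10 widest runs of loss and the 5 lowest and highest windows. The libraries and rules were chosen with earlier results of these data known. The sizes 0.5 and 0.7 for single windows beside 1, the stretches at 0.2, the chromosome ends and the profiles around maxima and runs were chosen after values had been seen. The planned values at genes and origins were not run, since their positions in the files' build are not given here. Peak lists and difference tracks were not used.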

Additional observations from a re-analysis of the deposited data

How the results depend on the processing

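Of 78 alternatives, 56 left the value within 1.5 times (counts) or within the SD over chromosomes (other values). Some of the 56 could not differ. Centring on the median cannot change local loss, local gain, the broad share of variance or the broad span. No paired analysis was possible with 1 library a side, and the labels do not say what the numbers in the titles mark. With the constant at 50% of the median, windows lower and higher by 1 numbered 72 and 0, local loss and gain 37 and 0, and the central span was 0.42. Windows higher by 1 numbered 3 with a filter at 50% of the median and 16 with equal totals, a shift of 0.05. Local gain was met by 4 windows without the filter and by 0 with a running mean of 15 kb, 0 with 60 kb and 0 with a running median. A size of 0.7 gave 882 and 99 windows. Maxima numbered 133 at 15 kb, 40 at 60 kb and 41 at a rise of 0.25, and the slopes were 0.0984 and 0.0338 per 10 kb at 15 and 60 kb. Runs of 3 or more windows of loss numbered 19. The correlation with H3T45p, checked by alternatives added after seeing the data, was 0.855 at 15 kb. The difference in change between the densest and poorest class of H3 was -0.11 by the mean of both libraries, -0.31 by untreated signal and 0.13, reversed, by hydroxyurea signal, so no direction is read from it. Depth limits single poor windows most, with a counting SD of 0.16 in the poorest class against 0.07 in the densest.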

Other observations

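The windows left out for low H3 were not lower in hydroxyurea. The 5529 nuclear windows under the filter that held reads had 243356 reads in hydroxyurea and 220889 in untreated cells, a signal ratio of 1.01 (1.01 to 1.02), where the ratio of all nuclear signal was 0.966. Their share of the nuclear signal was thus slightly larger in hydroxyurea. Among kept windows, local loss of 1 or more was met by 0.446% of windows in the poorest of 10 classes by the mean of both libraries and by 0.195% in the densest. By untreated signal these shares were 0.0694% and 0.405%, so the order turned with the library that set the classes. The spread of the local change was wider than counting gives in every class of H3 signal, with an SD of 0.32 against a counting SD of 0.16 in the poorest of 10 classes and 0.21 against 0.07 in the densest.

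The local change of H3T45p did not follow that of H3, with a Pearson correlation of -0.06 over all kept windows. Its median went the opposite way in the outermost classes, which are cut at 1 for loss and 0.5 for gain. In the windows of loss it was above 0 in 66.4%, so single windows went both ways. The median local change of H3T45p was 0.17 in windows where H3 was locally lower by 1 or more and 0.06 where H3 was between -1 and -0.7. It was -0.004 where H3 was between -0.7 and -0.5, and -0.03 where H3 was between -0.5 and -0.3. It was -0.13 in the 1241 windows where H3 was locally higher by more than 0.5. The windows of gain were poorer in untreated H3, with a median of 124 against 382 in the windows of loss, which choosing by gain and loss favours. The H3T45p change, with its broad part, was itself lower in poor than in dense windows, with -0.25 and 0.38 in the outermost classes of H3 signal. The part of H3 level in these opposite directions was not tested.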
